A study of Homo sapiens with 12 samples.

Results

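The genes described here are 9 inflammatory genes that are not chemokines: PTX3, SAA1, IL32, TNFRSF9, LTB, CTSS, C15orf48, OLR1 and SDC4. They were found among the 25141 genes of the count table by matching Ensembl identifiers to these symbols in GENCODE release 29. The list was drawn up because these genes varied between the groups of HOS cells in the same counts. Their levels and fold changes are therefore descriptions, no p-value is given for them, and the counts of them past a threshold describe the values that chose them and support nothing. HOS is an established human osteosarcoma cell line, and the 12 RNA-seq libraries fall into 4 groups of 3. The upCIN85 group was a geneticin-selected (G418) pool transfected with a vector that expresses full-length CIN85, an adaptor protein encoded by SH3KBP1. The Mock group had been transfected with that vector lacking an insert, and the study's methods give the geneticin selection for both. In the siCIN85 group SH3KBP1 was silenced with several pooled siRNAs, and the siNeg group was given a non-targeting siRNA. The labels do not say whether the replicates were separate cultures, so errors and p-values cover only the spread between these libraries, which may be technical.

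Most of these genes belong to the local inflammatory response. Inflammatory cytokines such as TNF and IL-1 act through NF-κB, C/EBP and STAT transcription factors, which bind upstream of their target genes and raise transcription. Early targets include chemokines and feedback inhibitors, and later or secondary targets include acute-phase proteins, proteases and cell surface receptors. Mesenchymal cells, from which osteosarcoma arises, can produce such genes as well as leukocytes.

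For 6 of the 9 genes RefSeq gave a window upstream of a transcript start (GRCh38.p14), and the 250 bases before each start were searched for 5 motifs. PTX3, C15orf48, TNFRSF9 and SDC4 had 1 window each, and IL32 and LTB had 2. C15orf48 is listed in RefSeq as COXFA4L3. The others were SAA1, CTSS and OLR1. A match to the κB motif, the site class that NF-κB binds, was found for PTX3, IL32, TNFRSF9, LTB and SDC4, and none was found in the window of C15orf48. Of all 34796 distinct windows in the RefSeq table, 5.21% held a κB match. The 30 bases around each match are shown because they can be compared side by side, with the match in capitals on the strand of the gene. In PTX3, IL32 and TNFRSF9 the capitals cover overlapping matches on both strands.
PTX3: accaaattcaGGGGAACTCCCgttaccgca
IL32: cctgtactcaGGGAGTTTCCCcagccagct
TNFRSF9: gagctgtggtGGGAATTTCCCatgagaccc
LTB: aggggtgtgcGGAAAGTCCCagccaggtgt
SDC4: cgcttccactGGGGAATTCCgggcggggtg

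The stretches lie at chr3:157436743-157436772 on the forward strand for PTX3, chr16:3065294-3065323 on the forward strand for IL32, chr1:7940894-7940923 on the reverse strand for TNFRSF9, chr6:31582492-31582521 on the reverse strand for LTB and chr20:45348502-45348531 on the reverse strand for SDC4. The match began 97 bases before the start in PTX3 and in SDC4, 99 bases before in IL32, 74 bases before in TNFRSF9 and 87 bases before in LTB. GENCODE 29 places transcript starts further upstream in several of these genes, so that the stretches of IL32, TNFRSF9 and LTB also fall in annotated exons, whereas those of PTX3 and SDC4 do not. For IL32 only the first of its starts had a match.

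The longer upstream stretches of PTX3 and SDC4 that lie outside GENCODE exons are given for context, since their κB matches lie there. The 189 bases of PTX3 (chr3:157436600-157436788, forward strand) hold a C/EBP match and the κB match, both in capitals, and the 250 bases of SDC4 (chr20:45348425-45348674, reverse strand) hold only the κB match.
PTX3: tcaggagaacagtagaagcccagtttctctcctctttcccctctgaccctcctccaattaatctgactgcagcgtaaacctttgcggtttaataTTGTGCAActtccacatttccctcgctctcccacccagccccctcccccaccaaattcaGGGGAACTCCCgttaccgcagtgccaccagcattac
SDC4: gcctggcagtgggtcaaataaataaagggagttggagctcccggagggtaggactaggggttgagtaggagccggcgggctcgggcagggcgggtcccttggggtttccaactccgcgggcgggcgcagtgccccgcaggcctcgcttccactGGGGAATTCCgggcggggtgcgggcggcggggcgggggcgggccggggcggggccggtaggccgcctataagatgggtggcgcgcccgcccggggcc

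The other motifs were AP-1 (TGANTCA), C/EBP (TTGCNNAA) and STAT (TTCNNNGAA), searched on both strands, and the TATA box (TATAAA), searched on the strand of the gene. They occurred in 6.59%, 9.05%, 6.57% and 6.84% of all windows. TNFRSF9 held an AP-1 and a STAT match, LTB a STAT match and PTX3 the C/EBP match. No window of these genes held the exact letters TATAAA. Other forms of the TATA box were not searched, so the windows are not shown to lack one. No motif overlapped a match to a different motif. A match describes letters in a sequence, and binding was not measured.

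**Figure D1:**
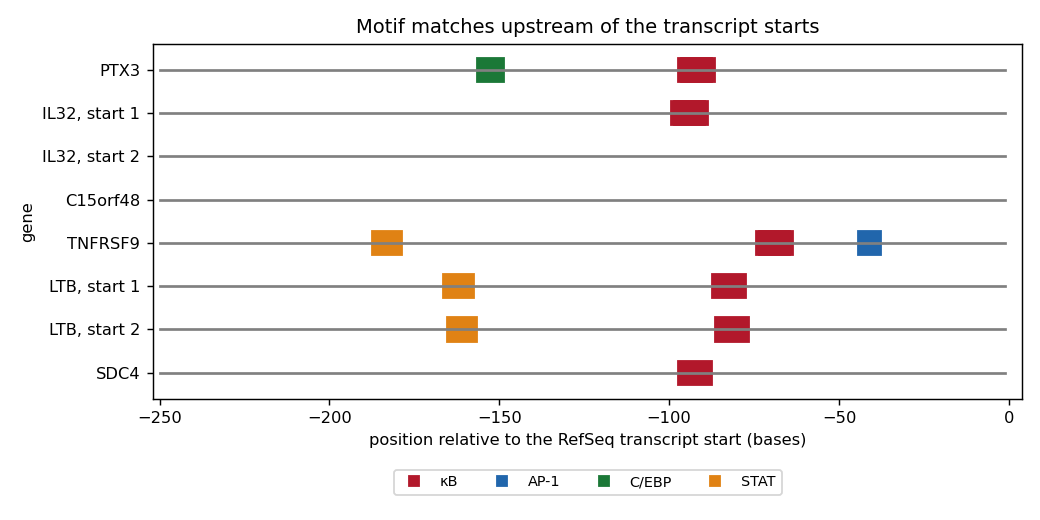
Motif matches in the 250 bases before each RefSeq start, with the position relative to the start in bases on the horizontal axis and 1 line for each window. The κB matches of PTX3, IL32, TNFRSF9, LTB and SDC4 lie between 99 and 64 bases before the start, and the second IL32 window and C15orf48 carry no coloured box.

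Levels are given as CPM, which are counts scaled to a common library size with edgeR's TMM factors. The total count per library was between 5334731 and 6049458 in the Mock and upCIN85 groups and between 3540641 and 4174860 in the siRNA groups. SH3KBP1 was at 7.54 ± 3.19 CPM in siCIN85 against 85.1 ± 2.37 in siNeg (mean ± SD, n = 3), and at 81.3 ± 9.61 in upCIN85 against 77.5 ± 5.0 in Mock. The counts thus show the knockdown and not the overexpression. The assay reads transcript 3′ ends, and whether the plasmid transcript ends where reads are assigned to SH3KBP1 is not given in the sources used here, so this gene does not check the upCIN85 label, and upCIN85 below means the libraries labelled so. CIN85 protein, which the study measured by western blot, is not analysed here. Of 10 mesenchymal and osteoblast markers 8 were in the table, with VIM, COL1A1 and SPARC the most abundant, while IBSP, an osteoblast marker, was at 0 in all libraries but 1. Group means were 0.253 to 3.26 CPM for ALPL, 1.56 to 6.54 for SPP1 and 12.8 to 32.3 for RUNX2, and SP7 and BGLAP were not in the table. Of 5 epithelial markers 2 were in the table, EPCAM and CDH1, which together were at 44.8 to 82.6 CPM per library. Of 14 leukocyte markers 11 were in the table, and their summed counts were 9 to 28 per library, with PTPRC (CD45) at 0 in Mock, upCIN85 and siNeg and at 1 count in siCIN85.

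Across the 4 groups, 8 of the 9 genes had their lowest mean in upCIN85 and their second lowest in Mock. In 7 of the 9, every siRNA library lay above every plasmid library, the exceptions being OLR1 and SDC4. The share of all genes with every siRNA library above every plasmid library was not computed. The highest mean was in siNeg for 7 genes and in siCIN85 for CTSS and LTB. The ratio of the highest to the lowest group mean ran from 1.78 for SDC4 to 36.1 for LTB. For PTX3, IL32, CTSS, TNFRSF9 and LTB, no upCIN85 library overlapped Mock and no Mock library overlapped siNeg. How many of all genes follow these orders was not computed. The list was chosen on these groups, so nothing is read from the orders or their counts.

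**Figure D2:**
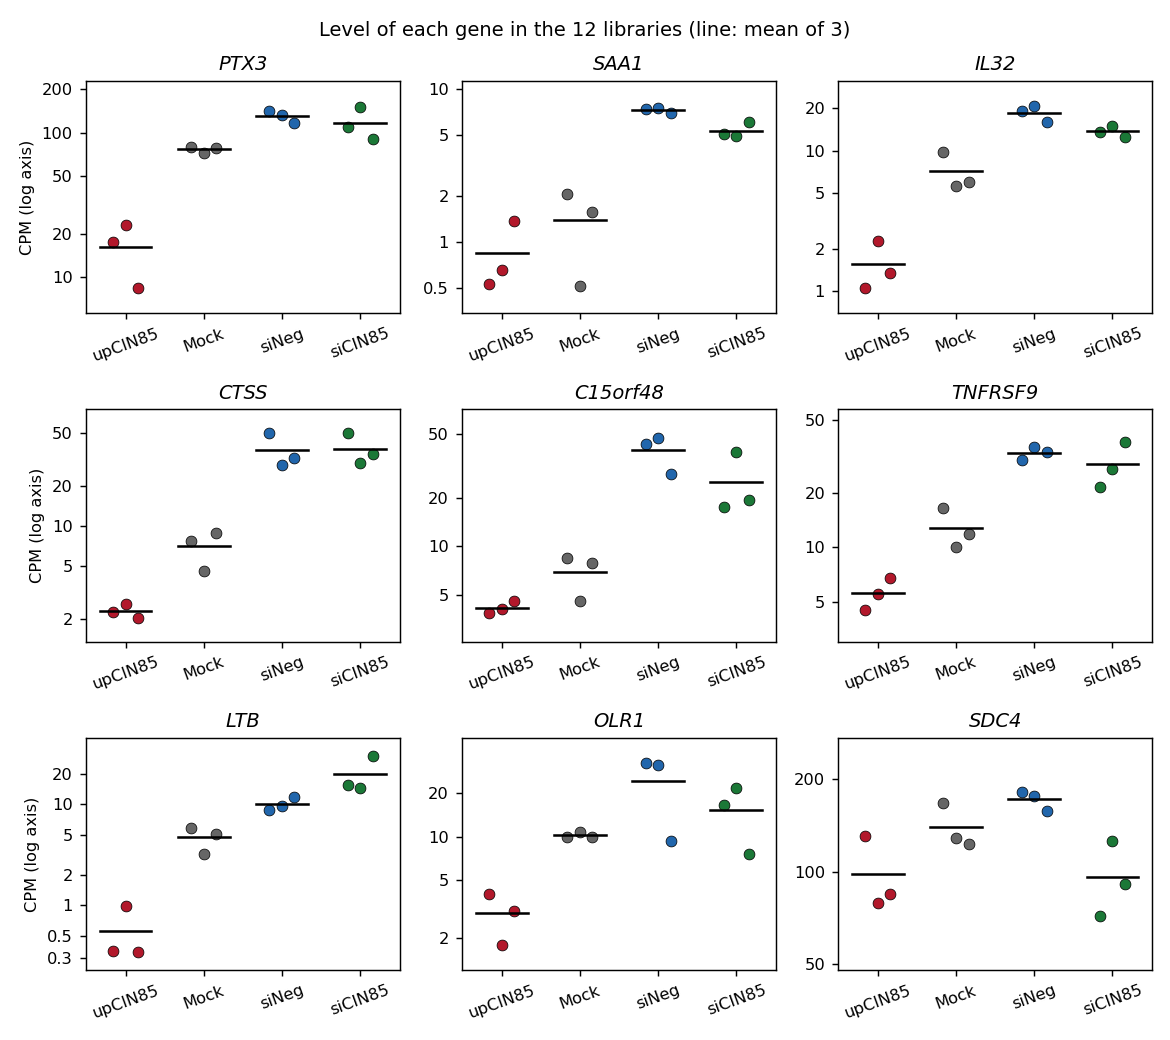
Level of each gene in CPM, on a log axis with its own range in each panel. Each point is 1 library in replicate order from left to right and each line is the mean of 3 libraries. The upCIN85 mean is the lowest in all panels but SDC4, although Mock replicate 2 lies below all upCIN85 points in SAA1 and among them in C15orf48, and in SDC4 siCIN85 and upCIN85 have similar means (96.3 and 98.3 CPM).

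PTX3 encodes the long pentraxin 3, a secreted pattern recognition protein that many cell types release on stimulation with TNF or IL-1. It lies at chr3:157436789-157443628 on the forward strand (ENSG00000163661). Its level was 80.0, 72.0 and 78.4 CPM in the Mock libraries and 17.5, 23.0 and 8.5 CPM in upCIN85. It was 142, 132 and 116 CPM in siNeg and 109, 152 and 90.0 CPM in siCIN85. All upCIN85 libraries lay far below all Mock libraries, the siNeg libraries lay above Mock, and siNeg and siCIN85 overlapped. PTX3 was 4.68-fold lower in upCIN85 than in Mock (fitted log2 fold change −2.23, SE 0.243). Its log2 fold change was 0.76 (SE 0.217) in siNeg versus Mock and −0.16 (SE 0.216) in siCIN85 versus siNeg. An exon of VEPH1 on the opposite strand overlaps PTX3, and the strand setting of the counting is not given. VEPH1 had 122 counts over the 12 libraries, against 1296 for PTX3 in the Mock group alone.

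SAA1 encodes serum amyloid A1, an apolipoprotein of the acute-phase response that liver cells secrete in large amounts and other cells in smaller ones. It lies at chr11:18266174-18269977 on the forward strand (ENSG00000173432). Its counts were 11, 3 and 9 in Mock and 3, 4 and 8 in upCIN85, so that these groups could not be separated at this depth. In siNeg the counts were 30, 31 and 27 (7.50, 7.58 and 7.03 CPM), and in siCIN85 they were 21, 17 and 23 (5.10, 4.92 and 6.07 CPM). The 3 siNeg libraries were close to each other and lay above the other 9, and siCIN85 lay between siNeg and the plasmid groups without overlap. The log2 fold change was 2.41 (SE 0.375) in siNeg versus Mock, −0.46 (SE 0.326) in siCIN85 versus siNeg and −0.68 (SE 0.495) in upCIN85 versus Mock. The last value ran from −1.18 without upCIN85 replicate 3 to −0.29 without Mock replicate 1. SAA2, a near-identical neighbour, had 4, 3, 16 and 16 counts in all of Mock, upCIN85, siNeg and siCIN85, and how reads shared by both genes were assigned is not given, so the levels of the pair are uncertain.

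IL32 encodes interleukin-32, a cytokine that induces TNF and chemokines in other cells. It lies at chr16:3065297-3082192 on the forward strand (ENSG00000008517). Its level was 9.78, 5.60 and 5.96 CPM in Mock and 1.05, 2.29 and 1.36 CPM in upCIN85. It was 19.0, 20.8 and 15.9 CPM in siNeg and 13.6, 15.04 and 12.4 CPM in siCIN85. IL32 was the only one of the 9 genes besides LTB in which no neighbouring groups overlapped, in the order upCIN85, Mock, siCIN85 and siNeg. The log2 fold change was −2.15 (SE 0.314) in upCIN85 versus Mock, 1.39 (SE 0.237) in siNeg versus Mock and −0.44 (SE 0.230) in siCIN85 versus siNeg. The siCIN85 library was lower than the siNeg library of the same number in each of the 3 pairs, at 0.722, 0.729 and 0.787 of its level.

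TNFRSF9 (4-1BB, CD137) and LTB belong to the TNF family. TNFRSF9 is a receptor best known as a costimulator of activated T cells, and LTB encodes lymphotoxin β, which anchors lymphotoxin α to the membrane and signals through the receptor LTBR. TNFRSF9 (chr1:7915894-7943165, reverse strand, ENSG00000049249) was at 16.6, 10.02 and 11.9 CPM in Mock and at 4.55, 5.56 and 6.80 CPM in upCIN85. It was at 30.2, 35.9 and 33.6 CPM in siNeg and at 21.6, 26.9 and 38.3 CPM in siCIN85. The siNeg libraries lay above Mock and Mock above upCIN85, while siCIN85 spread around siNeg. The log2 fold change of TNFRSF9 was −1.18 (SE 0.251) in upCIN85 versus Mock, 1.38 (SE 0.219) in siNeg versus Mock and −0.20 (SE 0.210) in siCIN85 versus siNeg.

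LTB (chr6:31580525-31582522, reverse strand, ENSG00000227507) was the gene with the widest range. Its counts were 31, 19 and 29 in Mock and 2, 6 and 2 in upCIN85, a total of 10 in the latter. Its level was 8.75, 9.53 and 11.7 CPM in siNeg and 15.5, 14.5 and 30.4 CPM in siCIN85. All siCIN85 libraries lay above all siNeg libraries, and LTB was the only one of the 9 genes higher in siCIN85 than in siNeg in each of the 3 numbered pairs, by 1.74, 1.5 and 2.54 times. The log2 fold change was −3.00 (SE 0.494) in upCIN85 versus Mock, 1.09 (SE 0.327) in siNeg versus Mock and 1.01 (SE 0.293) in siCIN85 versus siNeg. Without upCIN85 replicate 2, whose 6 counts were the highest of its group, the first value was −3.67. Without siCIN85 replicate 3, the highest library of that group, the last was 0.58. LTB is made mainly by lymphocytes, and the summed leukocyte markers were 3.70 to 6.80 CPM in siCIN85 against 2.44 to 3.498 CPM in siNeg. The group totals in siNeg and siCIN85 were 5 and 14 counts for ITGAM and 0 and 6 for FCER1G. They were 17 and 19 for CD14 and 12 and 9 for CD8A. The lymphocyte markers CD3E and MS4A1 had 0 counts in both groups, and CD79A had 0 and 1. The part of leukocyte transcripts in the LTB difference was not tested.

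CTSS encodes cathepsin S, a lysosomal cysteine protease that trims the invariant chain during antigen presentation and is secreted in inflamed tissue. CTSS (chr1:150730196-150765957, reverse strand, ENSG00000163131) was at 7.71, 4.58 and 8.94 CPM in Mock and at 2.27, 2.61 and 2.04 CPM in upCIN85. It was at 50.2, 28.8 and 32.6 CPM in siNeg and at 49.99, 29.8 and 34.9 CPM in siCIN85. Both siRNA groups lay well above both plasmid groups. Within the siRNA groups, libraries of the same number were almost alike, with siCIN85 at 0.995, 1.03 and 1.07 times siNeg. The log2 fold change was −1.60 (SE 0.353) in upCIN85 versus Mock, 2.39 (SE 0.263) in siNeg versus Mock and 0.04 (SE 0.231) in siCIN85 versus siNeg, with a 95% confidence interval of −0.44 to 0.53 for the last.

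C15orf48 encodes a small mitochondrial protein that replaces a subunit of respiratory complex IV in inflamed cells, and its transcript carries the microRNA gene MIR147B. C15orf48 (chr15:45430529-45448761, forward strand, ENSG00000166920) was at 8.47, 4.58 and 7.89 CPM in Mock and at 3.85, 4.09 and 4.59 CPM in upCIN85. It was at 43.0, 47.2 and 28.1 CPM in siNeg and at 17.5, 38.8 and 19.3 CPM in siCIN85. The plasmid groups overlapped only through Mock replicate 2, and the siRNA groups only through siCIN85 replicate 2. C15orf48 had the largest difference of the 9 genes between the controls, with a log2 fold change of 2.502 (SE 0.294) in siNeg versus Mock. The value was −0.73 (SE 0.355) in upCIN85 versus Mock and −0.66 (SE 0.267) in siCIN85 versus siNeg, and the latter was −1.11 without siCIN85 replicate 2. The gene overlaps AC025580.2 on the same strand, which had 2 counts over all libraries.

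OLR1 encodes LOX-1, a scavenger receptor that binds oxidized low density lipoprotein and is induced by TNF. OLR1 (chr12:10158301-10172138, reverse strand, ENSG00000173391) was at 9.97, 10.9 and 9.996 CPM in Mock and at 4.02, 1.80 and 3.06 CPM in upCIN85, without overlap. It was at 32.2, 31.5 and 9.38 CPM in siNeg and at 16.7, 21.7 and 7.66 CPM in siCIN85. In both siRNA groups the library numbered 3 was by far the lowest and lay at or below the Mock level. Within the numbered pairs, siCIN85 was at 0.526, 0.692 and 0.825 of siNeg. The log2 fold change was −1.80 (SE 0.457) in upCIN85 versus Mock, 1.25 (SE 0.372) in siNeg versus Mock and −0.68 (SE 0.372) in siCIN85 versus siNeg.

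SDC4 encodes syndecan-4, a heparan sulfate proteoglycan of focal adhesions that binds growth factors and chemokines. SDC4 (chr20:45325288-45348424, reverse strand, ENSG00000124145) was at 167, 129 and 123 CPM in Mock and at 131, 79.3 and 84.7 CPM in upCIN85. It was at 182, 176 and 158 CPM in siNeg and at 71.6, 126 and 91.4 CPM in siCIN85. The siCIN85 libraries all lay below siNeg, and upCIN85 replicate 1 overlapped Mock. SDC4 was the only one of the 9 genes with its lowest mean in siCIN85. Its log2 fold change was −0.84 (SE 0.198) in siCIN85 versus siNeg, −0.51 (SE 0.193) in upCIN85 versus Mock and 0.30 (SE 0.192) in siNeg versus Mock. Within the numbered pairs, siCIN85 was at 0.395, 0.715 and 0.581 of siNeg.

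The overexpression comparison asks how the genes differ between cells transfected with CIN85 and with the empty vector. Both were selected with geneticin, and the labels do not say whether several pools were made of each. A difference between selected pools therefore cannot be told apart from CIN85. All 9 genes had a log2 fold change below 0 in upCIN85 versus Mock, with a median of −1.60, against a median of 0.01 over all 12542 genes tested. PTX3, IL32, CTSS, TNFRSF9 and LTB, 5 of 9, were past the threshold of edgeR's quasi-likelihood test (Benjamini-Hochberg adjusted P under 0.05), where 0.789% of all genes were lower and 1.23% were called in either direction. In 6 of 9, adding OLR1, all upCIN85 libraries lay below all Mock libraries, as in 11% of all genes. The list was chosen on this contrast, so nothing is read from these counts. Without Mock replicate 1, Mock replicate 3 or upCIN85 replicate 1 the genes past the threshold were PTX3, IL32 and LTB, with 0.366% to 0.709% of all genes called, and without upCIN85 replicate 3 they were PTX3 and IL32, with 0.199% called.

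In the knockdown comparison, 7 of the 9 genes had a log2 fold change below 0 and 2 (CTSS and LTB) above it, with a median of −0.44 against −0.01 over all genes tested. SAA1, IL32 and SDC4 were lower without overlap, as 10.2% of all genes were, and LTB was higher without overlap, as 9.91% were. None of the 9 was past the threshold of edgeR's quasi-likelihood test on all genes, where 1.04% of all genes were called, and 3 had an unadjusted P under 0.05, as did 15.7% of all genes. DESeq2 called 1 of them, SDC4, and 2.71% of all genes. The replicate numbers were taken to pair the siRNA libraries because of correlations in the same counts, and the labels do not state a pairing. With the number as a block in both experiments edgeR called 4 (C15orf48, LTB, OLR1 and SDC4) and 7.72% of all genes. With a block in the siRNA experiment only, added after the data had been seen, it called LTB and SDC4 and 3.42% of all genes. Without siCIN85 replicate 2, C15orf48, LTB and SDC4 were called, with 2.76% of all genes, and without siNeg replicate 3, upCIN85 replicate 1 or upCIN85 replicate 2, SDC4 was called, with 0.861% to 1.48%. The list was chosen on these groups as well, so nothing is read from these calls. SAA1, IL32, C15orf48, OLR1 and SDC4 were lower in siCIN85 in all 3 numbered pairs, which held for 22.8% of all genes, and LTB was higher in all 3, which held for 22.4%.

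**Figure D3:**
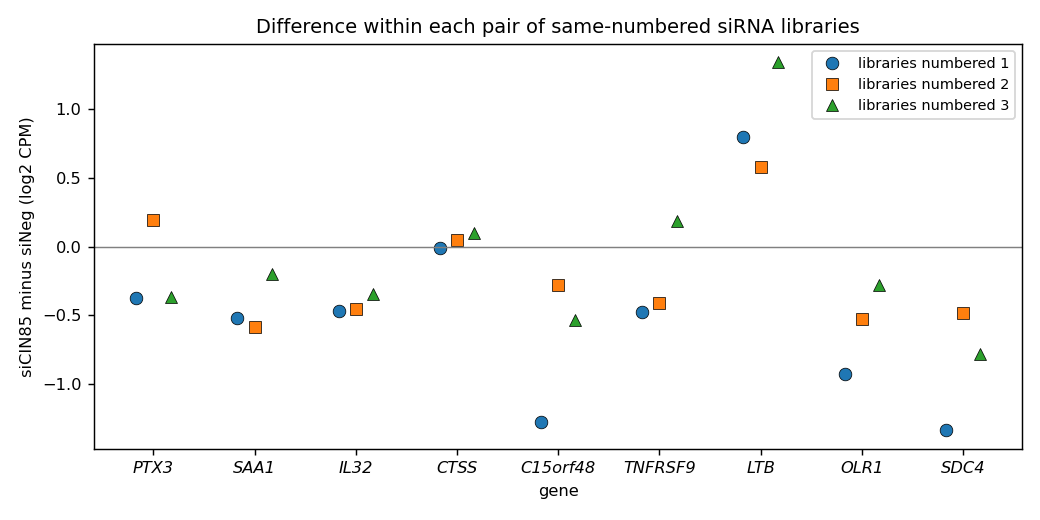
Difference in log2 CPM between the siCIN85 and the siNeg library of the same number, with 1 symbol for each number and a grey line at no difference. LTB lies above the line for all 3 numbers, CTSS lies close to it, and SAA1, IL32, C15orf48, OLR1 and SDC4 lie below it.

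The control comparison sets siNeg against Mock. These groups differ in the vector, the geneticin selection and the siRNA with its transfection, and these and any difference in handling cannot be told apart. All 9 genes had a log2 fold change above 0 in siNeg versus Mock, with a median of 1.38 against 0.00 over all genes. SAA1, IL32, CTSS, C15orf48 and TNFRSF9, 5 of 9, were past the threshold, where 0.415% of all genes were higher and 0.526% were called in either direction. In 7 of 9, all but OLR1 and SDC4, the siNeg libraries lay above Mock without overlap, as in 9.48% of all genes. The choice of the list used this contrast too, and nothing is read from its counts. Without Mock replicate 2, Mock replicate 3 or siNeg replicate 2, CTSS and C15orf48 were past the threshold, with 0.0557% to 0.0716% of all genes. With the replicate block in both experiments 8 of 9 were, all but SDC4, and 4.69% of all genes. The block is set within each experiment, so siNeg and Mock libraries share none. It takes replicate differences out of the error without cancelling them in siNeg versus Mock, so P-values there may be too small. This comparison shares the Mock libraries with the overexpression and the siNeg libraries with the knockdown, so the values of the comparisons are not independent.

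**Figure D4:**
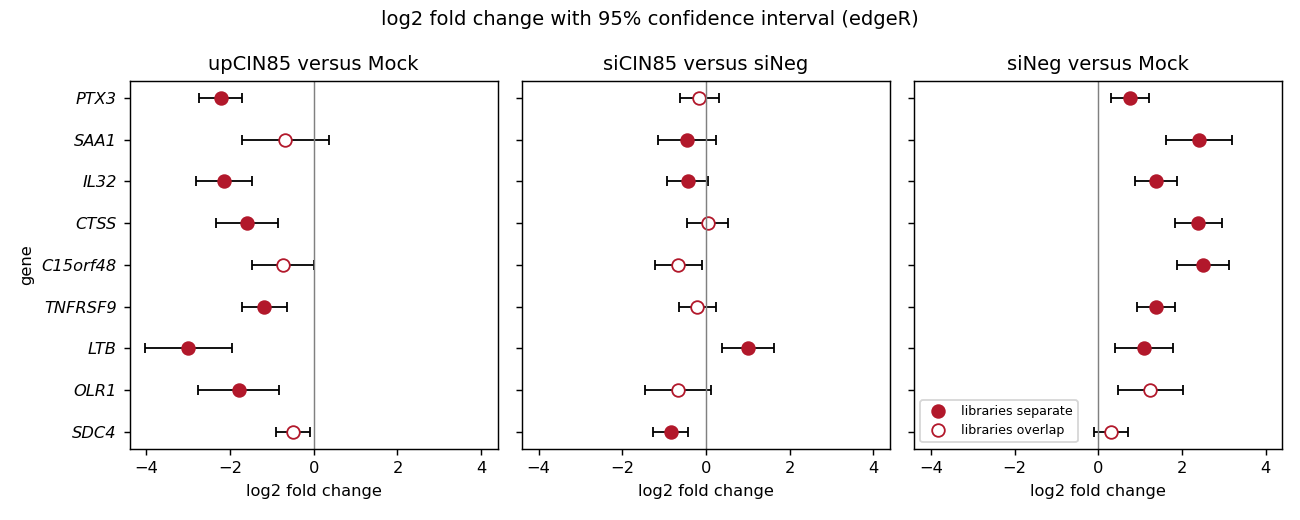
Fitted log2 fold change of each gene in the 3 comparisons, with the 95% confidence interval as a bar and a grey line at no difference. Filled points mark genes whose libraries do not overlap between the groups. The points lie left of the line for all 9 genes in upCIN85 versus Mock, with LTB at −3.00, and right of it for all 9 in siNeg versus Mock.

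The libraries within a group were not alike for these genes. Mock replicate 1 was the highest Mock library for 7 of the 9 genes, and Mock replicate 2 was the lowest for 7. In siNeg, replicate 3 was the lowest for 6 genes, with LTB the gene in which it was the highest. The upCIN85 and siCIN85 libraries had no such common order, with each library lowest for 2 to 4 genes. How many of all genes order the libraries in these ways was not computed. PTX3 in upCIN85 ran from 8.5 CPM in replicate 3 to 23.0 in replicate 2. OLR1 in siNeg replicate 3 lay 1.15 below its group mean on the log2 scale, the largest deviation of any of the 9 genes in any library.

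**Figure D5:**
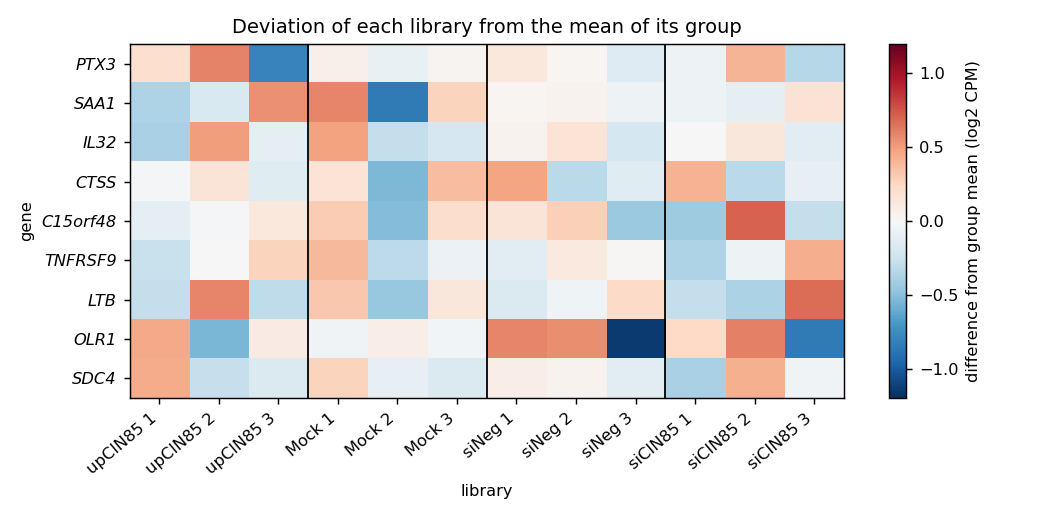
Difference of each library from the mean of its group, in log2 CPM, with genes as rows and the 12 libraries as columns. The Mock 2 column is blue for 8 of the 9 genes and the OLR1 row is dark blue in siNeg 3 and siCIN85 3 (−1.15 and −0.85).

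The genes whose levels over the 12 libraries were closest to each of the 9 were found from the root mean square (RMS) difference of log2 CPM, each gene centred on its own mean. The 12 libraries hold 4 group means, and likeness reflects mostly those. TNFRSF9 was closest to BIRC3 (RMS difference 0.23), ICAM1 and NFKBIZ. IL32 was closest to BIRC3 (0.36), ICAM1 and TNIP3, and PTX3 to IL32 (0.39), CELF2 and ICAM1. SAA1 was closest to the chemokine gene CXCL3 (0.36), then to C15orf48 and TNFRSF9, and C15orf48 was closest to SAA1 (0.40), CXCL3 and CXCL2. CTSS was closest to LCP1 (0.43), CXCL5 and CCL20, and LTB to LCP1 (0.49), ESM1 and CTSS. OLR1 was closest to PPP4R4 (0.32), HRH2 and CCL2. SDC4, which varied least itself, was closest to ESYT3 (0.18), FBN1 and PQLC3, and to none of the other 8 genes nearer than TNFRSF9 (0.95).

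Related genes were taken from 6 lists of 139 genes in all, of which 111 were in the table and 63 passed the filter on low counts. The lists were acute-phase proteins and pentraxins, TNF family ligands and receptors, cysteine cathepsins and cystatins, scavenger receptors, syndecans and glypicans, and the upstream cytokines, receptors and transcription factors of the acute-phase response. They were tested with edgeR's quasi-likelihood test, with P adjusted over all 12542 genes. In upCIN85 versus Mock 1 of 63 rose and none fell, in siCIN85 versus siNeg 2 rose and 1 fell, and in siNeg versus Mock 1 rose and none fell, where 1.23%, 1.04% and 0.526% of all genes were called. At an unadjusted P under 0.05 the numbers were 10, 13 and 10 of 63, against 14.5%, 15.7% and 12.4% of all genes. With the replicate block in both experiments, 13 of the 63 and 7.72% of all genes were called in siCIN85 versus siNeg. The median log2 fold change over the 63 was −0.04, 0.06 and 0.11 in the 3 comparisons.

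Of the acute-phase proteins and pentraxins only 4 of 17 in the table passed the filter, and CRP and other liver products were not among them. C1S, a protease of the classical complement pathway, rose in siNeg versus Mock by 3.91 on the log2 scale (SE 0.772, edgeR adjusted P = 0.0289). Its siNeg libraries were at 21.0, 5.38 and 1.30 CPM, and Mock was at 0.752, 0.340 and 0.701 CPM. The call was lost without siNeg replicate 1 (log2 fold change 2.46, edgeR adjusted P = 0.157), siNeg replicate 2 or any of the Mock libraries. C1R, its partner protease, was at 23.0, 6.84 and 1.30 CPM in the same siNeg libraries. Its log2 fold change of 2.91 (SE 0.843) in siNeg versus Mock did not pass edgeR's test (adjusted P = 0.145). Over the alternatives fitted with edgeR the adjusted P ran from 2.26e-12 to 0.56. It was 0.00587 under the replicate block, which siNeg and Mock libraries do not share, so that value may be too small. In siCIN85 both genes were again highest in replicate 1, at 8.74 CPM for C1R and 3.64 CPM for C1S.

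In the TNF family 17 genes were tested. TNFSF9, the ligand of TNFRSF9, was at 4.51, 1.87 and 2.81 CPM in Mock and at 8.22, 5.88 and 5.95 CPM in upCIN85, which lay above Mock without overlap while the receptor lay below it. Its log2 fold change of 1.13 (SE 0.333) did not pass edgeR's test (adjusted P = 0.0979), and in siNeg and siCIN85 its means were 3.60 and 3.70 CPM. Over the alternatives the adjusted P of edgeR or DESeq2 in upCIN85 versus Mock ran from 0.00805, with the replicate block in both experiments, to 0.388. LTBR, the receptor of LTB, had means of 63.2, 58.0, 69.0 and 74.6 CPM in Mock, upCIN85, siNeg and siCIN85, with log2 fold changes of −0.12, 0.11 and 0.13 in the 3 comparisons, none past the threshold. LTA, the partner subunit of LTB, had at most 2 counts in any library. TNFRSF8 (CD30) rose in siCIN85 versus siNeg, from 2.249, 3.42 and 4.95 CPM to 10.7, 8.39 and 10.8 CPM (log2 fold change 1.496, SE 0.294, edgeR adjusted P = 0.0253). TNFRSF1B, the second TNF receptor, rose from 3.998, 6.60 and 3.65 CPM to 15.5, 8.68 and 16.6 CPM (log2 fold change 1.52, SE 0.309, edgeR adjusted P = 0.0264). Both calls were lost in the fit of only these 6 libraries (edgeR adjusted P = 0.0668 and 0.0675) and without siNeg replicate 1 or 2 or siCIN85 replicate 1 or 3, and that of TNFRSF1B also without siNeg replicate 3.

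Of the cathepsins and cystatins 13 were tested. CST3, which encodes cystatin C, a secreted inhibitor of cathepsin S and other cysteine proteases, rose in upCIN85 versus Mock from 24.3, 18.5 and 17.7 CPM to 31.1, 35.0 and 39.4 CPM (log2 fold change 0.81, SE 0.178, edgeR adjusted P = 0.034). The CST3 call was lost without Mock replicate 2 or 3 or upCIN85 replicate 1 or 3, with edgeR adjusted P of 0.058 to 0.179. CTSB and CTSL, lysosomal proteases of the same family as CTSS, had log2 fold changes of 0.18 and 0.08 in upCIN85 versus Mock, of 0.13 and 0.22 in siCIN85 versus siNeg and of 0.31 and 0.14 in siNeg versus Mock, none past the threshold. The same values for CTSS were −1.60, 0.04 and 2.39. CD74, the invariant chain, is not analysed here.

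Of the scavenger receptors 6 were tested, and SCARB2, a lysosomal membrane protein of the CD36 family, fell in siCIN85 versus siNeg from 69.5, 61.3 and 54.7 CPM to 34.9, 39.9 and 44.4 CPM (log2 fold change −0.64, SE 0.128, edgeR adjusted P = 0.0253). Its call was lost in the fit of 6 libraries (edgeR adjusted P = 0.079) and without siNeg replicate 1 or 2 or siCIN85 replicate 1 or 3. Of the syndecans and glypicans 7 were tested. SDC2, a syndecan of mesenchymal cells, was at 237, 269 and 203 CPM in siNeg and at 159, 199 and 146 CPM in siCIN85, without overlap (log2 fold change −0.49, SE 0.138, edgeR adjusted P = 0.0943). With the replicate block in both experiments its edgeR adjusted P was 0.00256, and with the block in the siRNA experiment only it was 0.0212. SDC1 and SDC3 had log2 fold changes of 0.05 and 0.30 in that comparison, neither past the threshold.

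Among the 16 tested upstream cytokines, receptors and transcription factors none passed in any comparison. At an unadjusted P under 0.05 there were 4 in upCIN85 versus Mock, 2 in siCIN85 versus siNeg and 2 in siNeg versus Mock, against 14.5%, 15.7% and 12.4% of all genes. CEBPD, a C/EBP factor of the acute-phase response, was singled out after its values were seen. It was at 30.5, 21.4 and 23.3 CPM in Mock, 36.4, 16.3 and 46.7 CPM in upCIN85, 61.5, 65.7 and 41.4 CPM in siNeg and 26.7, 26.9 and 29.8 CPM in siCIN85. The siNeg libraries lay above both Mock and siCIN85 without overlap (log2 fold change 1.17 in siNeg versus Mock with edgeR adjusted P = 0.0646, and −1.02 in siCIN85 versus siNeg with edgeR adjusted P = 0.0835). With the replicate number as a block, the edgeR adjusted P of these differences was 0.000631 and 0.00254, and with DESeq2 the adjusted P was 0.00423 and 0.0161. As siNeg and Mock libraries share no block, the value of 0.000631 may be too small. Over all alternatives the adjusted P of edgeR or DESeq2 ran from 5.27e-09 to 0.268 in siNeg versus Mock and from 5.75e-07 to 0.541 in siCIN85 versus siNeg. TNF and IL1B did not pass the filter, with group means of 0 to 1.81 CPM for TNF and of 0.224 to 2.33 CPM for IL1B.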

How the data were processed

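RNA-seq of HOS cells covered 12 libraries in 4 groups of 3, grouped by the sample labels. Per the labels, libraries were made with a QuantSeq 3′ FWD kit with a UMI module. The submitters' processing notes name cutadapt 4.3, STAR 2.7.3a, Picard 2.25.6, MultiQC 1.10.1, featureCounts, Subread 2.0 and GRCh38. Collapsing of UMIs, the strand setting and the annotation are not given in the sources used here. The authors deposited whole-number read counts per gene without normalization, and these were used as given. Gene names and coordinates came from GENCODE 29, in which 95 identifiers had no match, and upstream sequences from RefSeq on GRCh38.p14.

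Counts were analysed in R 4.3.3 with edgeR 4.0.16: filterByExpr (minimum count 10, minimum total 15) kept 12542 genes, including all 9 described, and quasi-likelihood models with 1 mean per group and TMM normalization were fitted to all 12 libraries (8 residual degrees of freedom). P-values are two-sided and Benjamini-Hochberg adjusted over all tested genes. SE is the absolute log2 fold change divided by the square root of F. CPM are TMM-normalized, and log2 CPM use a prior count of 2. No pair of libraries was a duplicate. The fits and DESeq2 1.42.0 were tested on simulated counts.

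The siNeg and siCIN85 libraries that share a number departed from their group means in the same way (r = 0.353, 0.269 and 0.446 across 12542 genes, which are not independent), so the numbers of the labels were taken to pair them. Alternatives were RLE normalization, no filter, DESeq2, only the 6 libraries of a comparison, the replicate block and each library left out. Blocks were set within an experiment, so siNeg and Mock libraries share none, and P-values of siNeg versus Mock under a block may be too small. A block in the siRNA experiment only, and leaving out both siRNA libraries of a number, were chosen after seeing the data.

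The genes and lists were chosen with earlier results of these data known. Genes named beside the 9 were SH3KBP1, up to 3 related genes per list and comparison with the smallest adjusted P under 0.05, a set of partners and paralogs (LTBR, TNFSF9, SAA2, CTSB, CTSL, SDC1, SDC2, SDC3, CD74), and the 3 genes closest to each of the 9. C1R, CEBPD, LTA, TNF and IL1B were named after their values were seen.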

Additional observations from a re-analysis of the deposited data

How the results depend on the processing

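For the 9 inflammatory genes, no alternative turned the sign of a fold change in upCIN85 versus Mock or in siNeg versus Mock, and in siCIN85 versus siNeg 3 alternatives turned that of CTSS, whose value lay near 0. RLE normalization changed none of the counts called of the 9. Of the 9, without the filter on low counts 7, 3 and 8 were called in upCIN85 versus Mock, siCIN85 versus siNeg and siNeg versus Mock, with DESeq2 6, 1 and 5, with only the 6 libraries of a comparison 6, 0 and 6 (SAA1 did not pass the filter in the first), with a replicate block for all libraries 7, 4 and 8, and with a replicate block for the siRNA libraries alone 6, 2 and 7. The shares of all genes called rose or fell too: they were 1.23%, 1.04% and 0.526% as reported, 2.53%, 2.45% and 1.5% without the filter, 2.15%, 2.71% and 1.83% with DESeq2, 2.28%, 0.424% and 0.761% with only 6 libraries, 8.25%, 7.72% and 4.69% with a block for all libraries, and 4.35%, 3.42% and 1.72% with a block for the siRNA libraries alone. Leaving out each library in turn gave 2 to 6, 0 to 3 and 2 to 6 of the 9, and 0.199% to 2.07%, 0.0691% to 2.76% and 0.0557% to 1.02% of all genes. These counts of the 9 describe the values that chose them. Leaving out both siRNA libraries numbered 2 gave 1 called in siCIN85 versus siNeg and 2 in siNeg versus Mock.

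Of the 63 related genes tested in the reported fit, 1, 3 and 1 were called in the 3 comparisons. Counts under the alternatives cover the related genes that each fit tested, which need not be the same 63. Without the filter these were all 111 in the table. The numbers were 5, 12 and 9 without the filter on low counts, 1, 7 and 2 with DESeq2, 1, 1 and 2 with only 6 libraries, 6, 13 and 8 with a replicate block for all libraries, 3, 9 and 5 with a replicate block for the siRNA libraries alone, and 0 to 1, 0 to 7 and 0 to 5 with each library left out. Leaving out both siRNA libraries numbered 1 gave 0 and 0 in siCIN85 versus siNeg and siNeg versus Mock, those numbered 2 gave 1 and 0, and those numbered 3 gave 2, 0 and 6 in the 3 comparisons. Without the filter more genes were tested, and with libraries left out there were fewer samples. The causes of the changes in these numbers were not tested.

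Same-numbered Mock and upCIN85 libraries had correlations of 0.326, 0.227 and 0.0989 in their deviations from the group means. Mock and upCIN85 libraries of different numbers had −0.298 to 0.0303, so the numbers may pair these libraries as well. The reported fit held no block in either experiment. With the block in both experiments 8.25% of all genes were called in upCIN85 versus Mock, against 1.23% as reported. With 3 libraries a group and as few as 10 counts in all of a group (LTB in upCIN85), the size of the larger fold changes is imprecise. The replicate block changed the calls of CEBPD and C1R in siCIN85 versus siNeg and siNeg versus Mock, of C1S (edgeR adjusted P = 0.00308) and SDC2 in siCIN85 versus siNeg and of TNFSF9 in upCIN85 versus Mock (edgeR adjusted P = 0.00805), and of no other named related gene that was tested. Those in siNeg versus Mock come from libraries that share no block, so their P-values may be too small.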
